A study of Drosophila melanogaster with 12 samples.

Results

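Enzymes of the lower part of glycolysis, from the cleavage of fructose bisphosphate to pyruvate, were followed in Drosophila testes together with the extra gene copies that flies carry for some of these steps. The genes were Ald1 and Ald2, Tpi, Gapdh1 and Gapdh2, Pgk, Pglym78 and Pglym87, Eno and PyK, and a probe set counted as a member when the array's annotation gave it exactly 1 gene symbol and that symbol was on the list. This found 8 probe sets for 7 of the 10 genes, out of 18769 Drosophila probe sets. For the other 3 genes, Ald2 is named only on a probe set shared with another gene, and no probe set was matched to Gapdh2 or PyK, so their levels are not given here. Of the 3 pairs of paralogs on the list (Pglym87 with Pglym78, Ald2 with Ald1, and Gapdh1 with Gapdh2), only the first could be contrasted.

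Glycolysis splits a 6-carbon sugar phosphate into 3-carbon units and oxidises them to pyruvate, with a net gain of ATP and NADH. Flies, like mammals, hold duplicated genes for several of its enzymes, and some copies are used mainly in the male germ line. Spermatocytes prepare transcripts for the later growth of sperm well before the meiotic divisions, and many of these depend on tMAC, a testis form of the Mip/dREAM complex, on testis forms of the TAF subunits of TFIID (tTAFs), and on the coactivator Mediator.

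RNA was taken from whole testes of 1-day-old adult flies kept at 25 °C, freed of seminal vesicle and accessory gland, and about 250 ng of total RNA went onto each of 12 Affymetrix arrays, 3 for each genotype. Wild type arrays are labelled y,w, while the study's methods refer to a red,e data set. Testes called Med22RNAi carried a hairpin against the Mediator subunit Med22 driven by Bam-Gal4, which is active in late spermatogonia and spermatocytes, with UAS-Dicer2. Testes called aly were aly2/aly5P and lacked function of a tMAC subunit, and those called sa were sa1/sa2 and lacked function of a tTAF. Germ cells of these 3 genotypes stop before the meiotic divisions, so their testes also hold no later stages, whereas wild type testes do. The Med22RNAi arrays were newly made as biological replicates, and the aly and sa arrays came from earlier work. Whether the y,w arrays belong to that earlier work is not stated. Knockdown and array set therefore cannot be told apart, and no array had the driver alone. For the 9 arrays other than Med22RNAi nothing states that the samples were independent, and p-values then measure only the spread between arrays.

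Values are log2 GCRMA signals, with a floor at 2.111, and 45.8% to 49.6% of probe sets lay below 3 on each array. Arrays of 1 genotype correlated at 0.983 to 0.997 over all probe sets. Median signals differed between genotypes, with wild type arrays at 3.66 to 3.80, Med22RNAi arrays at 4.15 to 4.25, aly arrays at 3.07 to 3.11 and sa arrays at 3.91 to 4.02. Setting these medians equal would add -0.46 to every log2 fold change of Med22RNAi against wild type, 0.64 to those of aly and -0.24 to those of sa. Among genes that touch the labels, y was near the floor in wild type, with a mean log2 level of 2.22 against 5.13, 5.20 and 6.26 in Med22RNAi, aly and sa. The gene e had a mean of 3.53 in wild type against 2.25, 2.34 and 2.20, and Dcr-2 had log2 fold changes of 1.88, 1.30 and 1.17 in the same order. The germ line markers were detected except vas, which lay below 3 on all arrays. Markers of accessory gland, an organ that the dissection removed, were present throughout and varied most in wild type, where the log2 of their summed signal ran from 14.1 to 17.1.

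The members moved in opposite directions. Gapdh1, Pgk and Pglym78 were higher in all 3 arrested genotypes than in wild type, whereas Pglym87, Tpi and 1 of the 2 Ald1 probe sets were lower in all 3, most strongly in aly (limma, adjusted p under 0.05 for each). Eno fell in aly. A change was called when its Benjamini-Hochberg adjusted p from limma was under 0.05 and it reached 4-fold. By this rule 1 of 8 member probe sets was lower and 1 higher in Med22RNAi, where 9.02% of all probe sets were called lower and 11.3% higher. In aly 3 were lower and 0 higher, against 10.3% and 14.3% of all probe sets. In sa 1 was lower and 0 higher, against 7.69% and 9.52%. By adjusted p alone, 3 members were lower and 4 higher in Med22RNAi (17.0% and 28.3% of all probe sets), 4 lower and 3 higher in aly (15.2% and 30.1%), and 4 lower and 4 higher in sa (14.3% and 28.0%). With medians set equal, 4 were lower and 4 higher in each, while the shares of all probe sets moved to 61.5% lower and 23.8% higher in Med22RNAi, 12.3% and 77.4% in aly, and 52.3% and 26.0% in sa. That setting also shifts the 30.0% to 35.3% of probe sets that lay at the floor on each array, and these shares count them. Before it, the median log2 fold change of all probe sets was 0.00 in Med22RNAi, aly and sa against wild type. Arrays of the 2 genotypes did not overlap for 6 of 8 members in Med22RNAi against wild type, 7 in aly and 7 in sa, as for 50.2%, 49.0% and 45.1% of all probe sets. The median log2 fold change of the 8 probe sets was 0.57 in Med22RNAi, -0.72 in aly and 0.20 in sa. In RNA from whole testes, fewer cells of a type and less RNA per cell cannot be told apart.

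**Figure D1:**
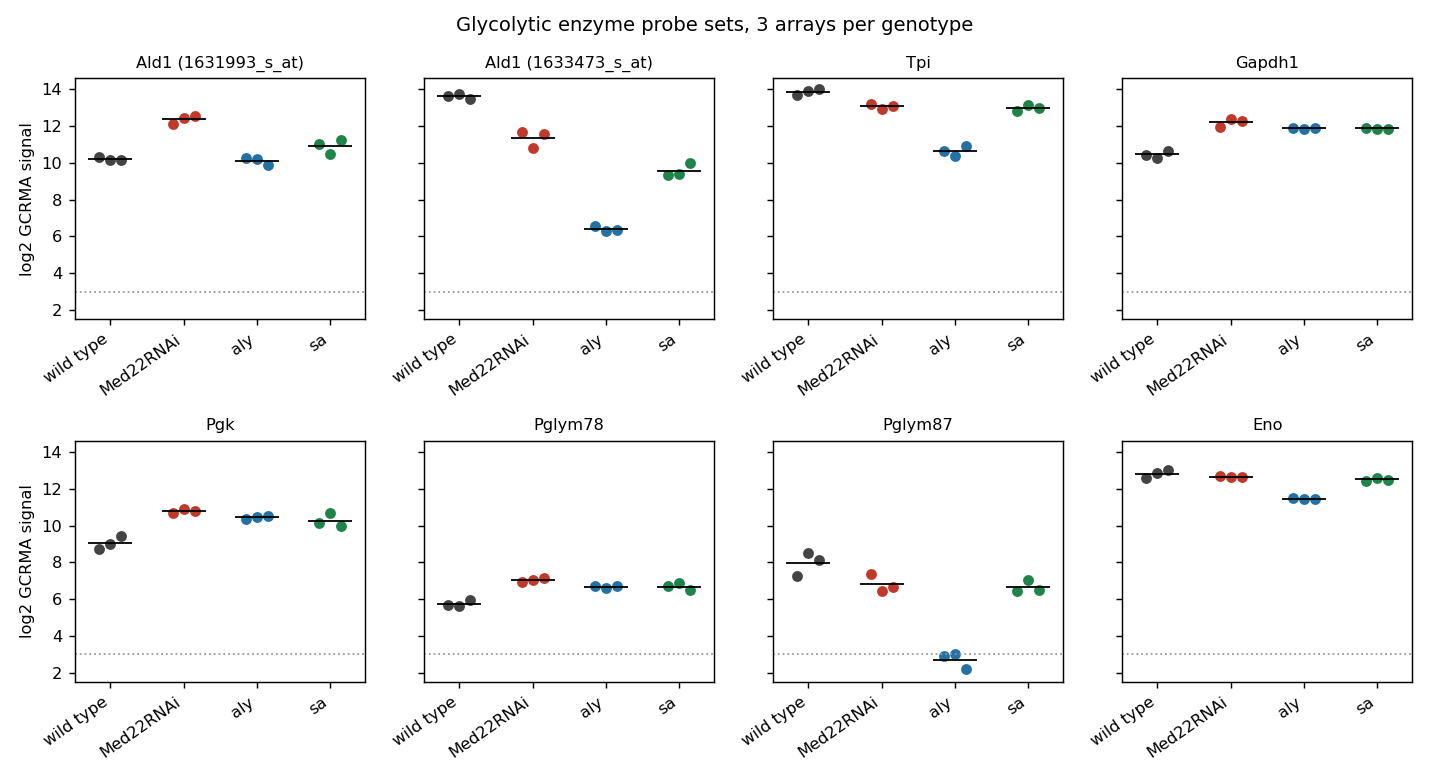
Log2 GCRMA signal (y axis) of the 8 member probe sets by genotype (x axis), with 1 point per array, a bar at the mean of 3 arrays and a dotted line at 3. Gapdh1, Pgk and Pglym78 sit higher in the 3 arrested genotypes, and Pglym87 lies at 2.19 to 3.0 in aly.

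Phosphoglycerate mutase, which turns 3-phosphoglycerate into 2-phosphoglycerate, is the step with both copies measured. Pglym87 had log2 levels of 7.28, 8.53 and 8.12 on the wild type arrays, 7.37, 6.44 and 6.68 in Med22RNAi, 2.90, 3.0 and 2.19 in aly, and 6.44, 7.04 and 6.49 in sa. All 3 aly arrays were near the floor and far below every other array, the sa arrays all lay under wild type, and 1 Med22RNAi array overlapped with wild type. Since all aly arrays lay under 3, the fold is a bound, and Pglym87 was at least 31.5-fold lower in aly than in wild type (2.69 ± 0.44 against 7.98 ± 0.64, SD, n = 3, limma adjusted p = 2.75e-06). It fell by 1.15 ± 0.39 (SE) in Med22RNAi (adjusted p = 0.0382) and by 1.32 ± 0.39 in sa (adjusted p = 0.0215), neither reaching 4-fold.

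These smaller changes of Pglym87 were borderline, with an adjusted p not under 0.05 in 9 of 20 settings for Med22RNAi and 5 of 20 for sa. In Med22RNAi the adjusted p from limma rose to 0.131 without Med22RNAi replicate 2, 0.107 without Med22RNAi replicate 3, 0.134 without wild type replicate 2, 0.103 without wild type replicate 3, 0.0535 without aly replicate 1, 0.0528 without sa replicate 1 and 0.0538 without sa replicate 3, within a range of 0.00249 to 0.134 over all settings. In sa it rose to 0.0726 without sa replicate 1, 0.0676 without sa replicate 3, 0.0787 without wild type replicate 2 and 0.0652 without wild type replicate 3, within a range of 0.00347 to 0.0787. The fall in aly kept an adjusted p under 0.05 in every setting tried.

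Pglym78, the other mutase gene, stood at log2 levels of 5.70, 5.61 and 5.96 in wild type, 6.91, 7.03 and 7.18 in Med22RNAi, 6.74, 6.58 and 6.74 in aly, and 6.71, 6.86 and 6.49 in sa. Every array of the 3 arrested genotypes was above every wild type array. The log2 fold change was 1.28 ± 0.12 (SE) in Med22RNAi (limma adjusted p = 2.33e-05), 0.93 ± 0.12 in aly (adjusted p = 0.000155) and 0.93 ± 0.12 in sa (adjusted p = 0.000199). These rises were between 1.90-fold and 2.44-fold, under the limit of 4-fold, and held their direction and an adjusted p under 0.05 in every setting tried.

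The contrast between the mutase genes was read within each array, so that a common scale factor cancels. Only its change between genotypes is meaningful, since signals of different probe sets are not on a common scale. The log2 signal of Pglym87 minus that of Pglym78 was 1.58, 2.92 and 2.16 in wild type, 0.46, -0.59 and -0.50 in Med22RNAi, -3.84, -3.59 and -4.55 in aly, and -0.27, 0.18 and -0.00 in sa. Wild type arrays were highest, Med22RNAi and sa arrays overlapped with each other below them, and aly arrays were lowest.

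Against wild type (2.22 ± 0.67, SD, n = 3), the contrast was lower by -2.43 ± 0.51 (SE) in Med22RNAi and by -2.25 ± 0.41 in sa, on the log2 scale, or 5.40-fold and 4.76-fold. In aly it was at least 60.0-fold lower, with Pglym87 set to 3. An exact permutation test of the F statistic over all 369600 ways to assign 12 arrays to the 4 genotypes gave p = 0.000455. For each genotype against wild type the two-sided exact permutation test of 3 arrays against 3 gave p = 0.1, which is the smallest value that design allows. Between the arrested genotypes, with Pglym87 in aly again set to 3, the contrast was at least 11.1-fold higher in Med22RNAi than in aly and at least 12.6-fold lower in aly than in sa (exact permutation p = 0.1 for each, on the measured values). Med22RNAi and sa differed by -0.18 ± 0.36 (exact permutation p = 0.7), less than the spread between arrays.

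**Figure D2:**
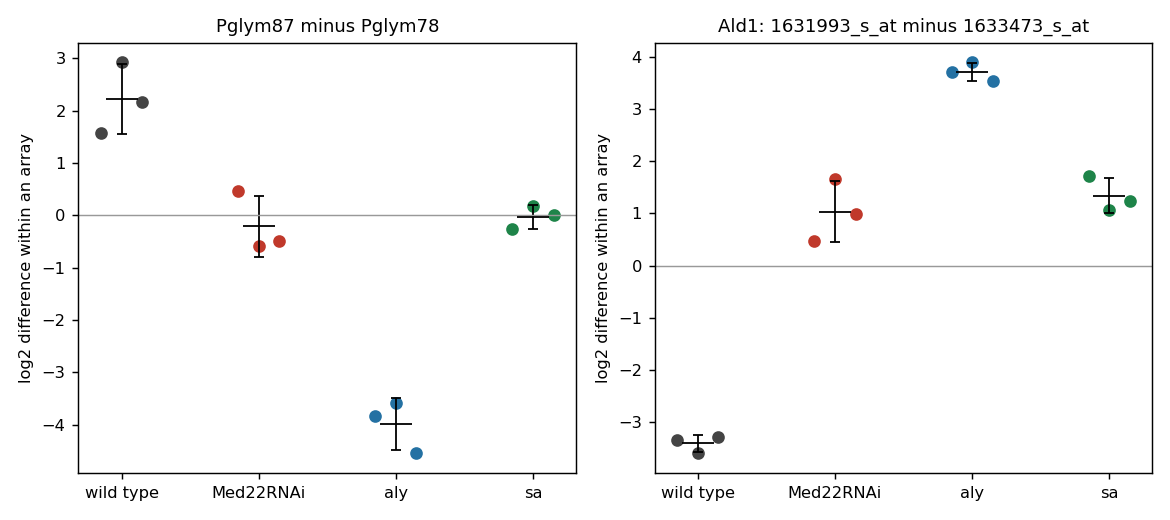
Within-array log2 differences (y axis) by genotype (x axis), with 1 point per array and bars for mean ± SD, n = 3. Left, Pglym87 minus Pglym78 falls from 2.22 in wild type to -3.99 in aly, with Med22RNAi and sa between. Right, Ald1 probe set 1631993_s_at minus 1633473_s_at goes from -3.41 in wild type to 3.71 in aly.

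Aldolase splits fructose 1,6-bisphosphate into glyceraldehyde 3-phosphate and dihydroxyacetone phosphate. Ald1 had 2 probe sets of its own, and they disagreed. Probe set 1633473_s_at had log2 levels of 13.66, 13.75 and 13.45 in wild type, 11.67, 10.82 and 11.56 in Med22RNAi, 6.57, 6.31 and 6.34 in aly, and 9.33, 9.40 and 10.01 in sa. The genotypes were separate on every array, in the order wild type, Med22RNAi, sa and aly. It fell by 2.27 ± 0.25 (SE) on the log2 scale in Med22RNAi (limma adjusted p = 5.69e-05), by 7.21 ± 0.25 in aly (adjusted p = 2.17e-08) and by 4.04 ± 0.25 in sa (adjusted p = 2.01e-06), which are 4.83-fold, 148-fold and 16.5-fold. Its fall in aly was the largest measured among the members, and it was the only one called lower in all 3 genotypes.

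The other Ald1 probe set, 1631993_s_at, had log2 levels of 10.32, 10.16 and 10.18 in wild type, 12.14, 12.47 and 12.54 in Med22RNAi, 10.27, 10.20 and 9.88 in aly, and 11.04, 10.47 and 11.25 in sa. Med22RNAi arrays were above all others, sa arrays were slightly above wild type, and aly overlapped with wild type. It rose by 2.17 ± 0.20 (SE) in Med22RNAi (limma adjusted p = 2.1e-05), the 1 member called higher there, and by 1.71 with array medians set equal, which is under 4-fold. In sa the log2 fold change was 0.70 ± 0.20 (adjusted p = 0.0198), and its adjusted p was 0.0686 without sa replicate 1, 0.0693 without sa replicate 3, 0.0599 without wild type replicate 2 and 0.0565 without wild type replicate 3, within a range of 0.0015 to 0.0844 over all settings. In aly it was -0.10 ± 0.20 (adjusted p = 0.837), turning to 0.54 (adjusted p = 0.0174) with medians set equal.

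Within an array, 1631993_s_at minus 1633473_s_at was -3.34, -3.60 and -3.28 in wild type, 0.47, 1.65 and 0.98 in Med22RNAi, 3.70, 3.89 and 3.54 in aly, and 1.71, 1.07 and 1.24 in sa. The wild type arrays were below all others and the aly arrays above all others, with Med22RNAi and sa overlapping between them. This contrast was chosen after its values were seen and is given as a description, with no test. The ending of both names marks probe sets that can match several transcripts. Which transcripts of Ald1, or of related genes, each one reads was not checked here. A statement on Ald1 as a whole therefore depends on the probe set. The only probe sets of Tpi and Eno have names with the same ending, and which transcripts they read was not checked either. Values given for Tpi and Eno are those of these probe sets.

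Markers of other cell types also differed between the genotypes. The log2 of the summed signal of 10 muscle markers ran from 11.01 to 12.01 on wild type arrays, 13.2 to 13.7 on Med22RNAi arrays, 10.6 to 11.3 on aly arrays and 10.8 to 11.7 on sa arrays, and that of 8 hemocyte markers was 9.57 to 9.93, 12.5 to 12.9, 10.2 to 11.3 and 11.1 to 11.4. Of the muscle genes 5 were called higher in Med22RNAi and 0 in aly and sa, while 1, sls, was called lower in aly (-4.38 on the log2 scale). Another sls probe set had log2 fold changes of -2.47, -5.99 and -1.95 in Med22RNAi, aly and sa, and its dimmest one -0.01, -0.23 and 1.91. Of the hemocyte genes 4 were called higher in Med22RNAi, 1 in aly and 1 in sa, with He and eater below 3 on all arrays. Among all probe sets 11.3%, 14.3% and 9.52% were called higher. The summed signal of 6 fat body markers was lower than in wild type, at 8.75 to 10.6 there and 7.25 to 7.34, 7.52 to 8.61 and 7.18 to 8.70 in Med22RNAi, aly and sa. The brightest of them in wild type was Lsp2, at a mean log2 level of 9.37, and in Med22RNAi only Lsp2 was lower by adjusted p alone. Yp1 and Yp2 lay below 3 on all arrays, and Yp3 had log2 fold changes of 0.22, 1.10 and 0.23 in the same order. The 10 accessory gland genes had a median log2 fold change of -2.11 in aly, with 2 called lower, and 0 were called in Med22RNAi and sa. For hub and cyst cells, 6 genes summed to 8.34 to 9.58, 9.90 to 10.6, 8.81 to 9.51 and 9.38 to 9.56 in the same order, with upd1 and tj below 3 throughout. The 11 germ line genes summed to 14.3 to 14.7, 15.4 to 15.5, 15.97 to 16.1 and 14.8 to 15.2 in the same order. Of these, 0 were called lower and 3 higher in Med22RNAi, 0 and 7 in aly, and 1 and 5 in sa. The 1 called lower was the gene sa itself, at -4.99. Among all probe sets 9.02%, 10.3% and 7.69% were called lower. The genes did not move together, and topi had log2 fold changes of -1.61, 3.13 and -1.41. The part of all these markers in the changes of the members was not tested.

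Triose phosphate isomerase, encoded by Tpi, interconverts the products of aldolase. Its log2 levels were 13.71, 13.91 and 14.01 in wild type, 13.21, 12.95 and 13.10 in Med22RNAi, 10.66, 10.40 and 10.90 in aly, and 12.83, 13.17 and 13.00 in sa. Wild type arrays were highest, Med22RNAi and sa arrays overlapped, and aly arrays stood apart at the bottom. Tpi fell by 3.22 ± 0.14 (SE) in aly, or 9.31-fold (limma adjusted p = 1.07e-07), and by 0.79 ± 0.14 in Med22RNAi (adjusted p = 0.00148) and 0.87 ± 0.14 in sa (adjusted p = 0.000839).

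Gapdh1 encodes glyceraldehyde 3-phosphate dehydrogenase, the oxidation step that makes NADH. It stood at log2 levels of 10.45, 10.29 and 10.67 in wild type, 11.95, 12.40 and 12.26 in Med22RNAi, 11.89, 11.84 and 11.91 in aly, and 11.93, 11.86 and 11.86 in sa. No array of an arrested genotype overlapped with wild type, and aly and sa had the same mean, 11.88 ± 0.04 (SD, n = 3). The log2 fold change was 1.73 ± 0.12 (SE) in Med22RNAi (limma adjusted p = 3.82e-06), 1.41 ± 0.12 in aly (adjusted p = 8.34e-06) and 1.41 ± 0.12 in sa (adjusted p = 1.31e-05).

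Pgk encodes phosphoglycerate kinase, which makes the first ATP of the lower pathway. Its log2 levels were 8.75, 9.0 and 9.44 in wild type, 10.69, 10.91 and 10.78 in Med22RNAi, 10.38, 10.45 and 10.55 in aly, and 10.12, 10.69 and 9.97 in sa. Again no arrested array overlapped with wild type. The log2 fold change was 1.73 ± 0.21 (SE) in Med22RNAi (limma adjusted p = 0.000119), 1.40 ± 0.21 in aly (adjusted p = 0.000415) and 1.201 ± 0.21 in sa (adjusted p = 0.00131). With medians set equal in aly, Gapdh1 and Pgk rose by 2.06 and 2.04, past the limit of 4-fold.

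Enolase, encoded by Eno, forms phosphoenolpyruvate from 2-phosphoglycerate. Log2 levels were 12.58, 12.85 and 13.00 in wild type, 12.71, 12.65 and 12.63 in Med22RNAi, 11.50, 11.44 and 11.47 in aly, and 12.45, 12.59 and 12.50 in sa. Med22RNAi lay within the wild type range, sa overlapped with its lower end, and aly arrays were all lower. Eno fell by 1.34 ± 0.09 (SE) in aly (limma adjusted p = 1.85e-06). The log2 fold change was -0.15 ± 0.09 in Med22RNAi (adjusted p = 0.267) and -0.30 ± 0.09 in sa (adjusted p = 0.0278). The Med22RNAi value became -0.61 (adjusted p = 0.000117) with medians set equal, and the sa value was -0.11 (adjusted p = 0.376) after quantile normalization, within ranges of 0.000117 to 0.78 and 0.000407 to 0.376 over all settings. Leaving out sa replicate 1, sa replicate 3, wild type replicate 2 or wild type replicate 3 gave adjusted p of 0.0935, 0.0723, 0.0839 and 0.0748 for Eno in sa.

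**Figure D3:**
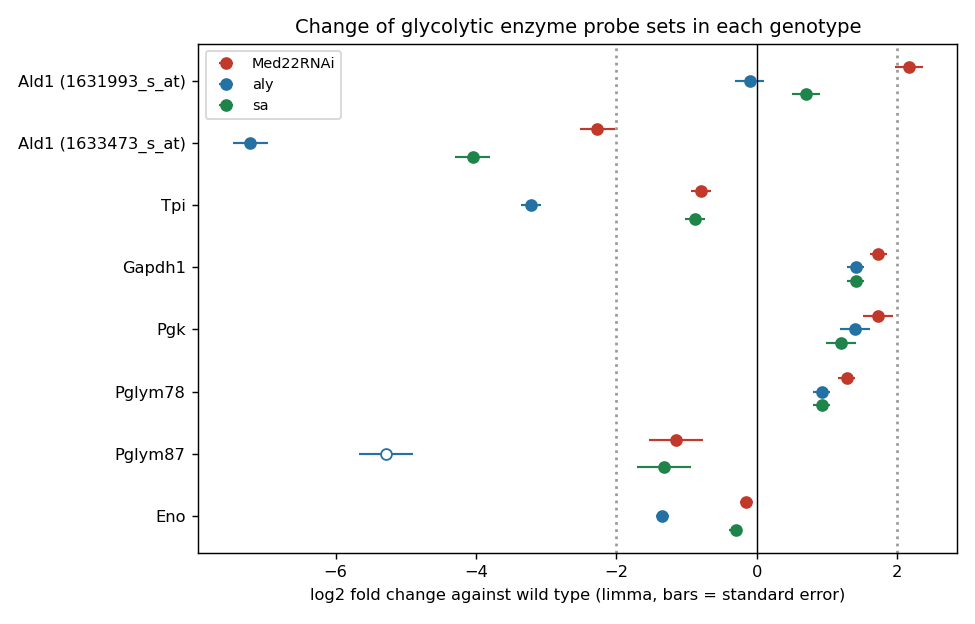
Log2 fold change against wild type (x axis) of each member probe set (y axis) in Med22RNAi, aly and sa, with bars for the standard error from limma and dotted lines at 4-fold. The open point, Pglym87 in aly, lies under the level of 3 and stands for a bound of at least 31.5-fold. The 2 Ald1 probe sets lie at 2.17 and -2.27 in Med22RNAi.

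The arrested genotypes were also compared directly. Between Med22RNAi and aly, 4 member probe sets were called higher in Med22RNAi and 0 lower, where 10.2% and 6.52% of all probe sets were. By adjusted p alone 6 were higher and 0 lower, against 20.1% and 21.0% (with medians set equal, 4 and 3, against 11.5% and 78.2%), and the arrays of 8 of 8 did not overlap, against 49.8%. These were Ald1 1633473_s_at, by 4.94 ± 0.25 (SE) on the log2 scale, Tpi, by 2.43 ± 0.14, Ald1 1631993_s_at, by 2.27 ± 0.20, and Pglym87, at least 14.2-fold higher (limma adjusted p = 4.97e-07, 1.34e-06, 1.9e-05 and 2.59e-05). Eno was higher by 1.19 ± 0.09 (adjusted p = 7.78e-06), and by 0.09 (adjusted p = 0.373) with medians set equal. With medians set equal, Tpi and Ald1 1631993_s_at differed by 1.33 and 1.16, under 4-fold. The differences of Gapdh1, Pgk and Pglym78 were 0.32, 0.33 and 0.36. With medians set equal, which adds the same shift to every probe set, they turned to -0.78, -0.77 and -0.75. With quantile normalization applied again they were 0.57, 0.56 and -0.40 (limma adjusted p = 0.00296, 0.0536 and 0.0465). Their direction between these genotypes depends on the normalization, and none is given for them.

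Between aly and sa, 3 member probe sets were called lower in aly and 0 higher, against 7.32% and 2.96% of all probe sets. By adjusted p alone 5 were lower and 0 higher, against 14.5% and 16.8% (with medians set equal, 3 and 3, against 8.75% and 78.6%), and the arrays of 5 of 8 did not overlap, against 40.3%. Pglym87 was at least 12.6-fold lower, and Ald1 1633473_s_at and Tpi differed by -3.17 ± 0.25 and -2.35 ± 0.14 (limma adjusted p = 5.36e-05, 1.25e-05 and 2.45e-06). With medians set equal Ald1 1633473_s_at differed by -2.29 and Tpi by -1.46, the latter under 4-fold. Ald1 1631993_s_at differed by -0.80 (adjusted p = 0.0147), but by 0.08 (adjusted p = 0.684) with medians set equal, and its adjusted p was 0.0562 without aly replicate 3, 0.0545 without sa replicate 1 and 0.0518 without sa replicate 3, within a range of 0.0013 to 0.684 over all settings. Eno differed by -1.04 ± 0.09 (adjusted p = 2.9e-05), but by -0.16 (adjusted p = 0.128) with medians set equal. The differences of Gapdh1, Pgk and Pglym78 were -0.00, 0.20 and 0.00, and 0.88, 1.08 and 0.89 with medians set equal.

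Between Med22RNAi and sa, 0 member probe sets were called in either direction, against 4.27% lower and 4.57% higher of all probe sets, and 5 had an unadjusted p under 0.05 in limma, against 39.0% of all probe sets. The arrays of 5 of 8 did not overlap, against 42.6% of all probe sets. By adjusted p alone in limma 0 were lower and 2 higher in Med22RNAi, against 16.6% and 16.7% (with medians set equal, 0 and 2, against 55.1% and 15.0%), and those 2 were both of Ald1, with 1633473_s_at at 1.77 ± 0.25 (SE; adjusted p = 0.000575) and 1631993_s_at at 1.46 ± 0.20 (adjusted p = 0.000521). Without Med22RNAi replicate 2, 1 member passed 4-fold. Tpi and Pglym87 differed by 0.09 ± 0.14 and 0.17 ± 0.39, within the spread between arrays.

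Over the 12 arrays 7 of the 8 member probe sets fell into 2 sets by their profiles, which is a description of arrays that share genotype and normalization. Tpi, Pglym87 and Eno correlated with each other at Pearson r of 0.979 to 0.982, and Ald1 1633473_s_at with these at 0.911 to 0.940. Gapdh1, Pgk and Pglym78 correlated at 0.949 to 0.974. The other Ald1 probe set, 1631993_s_at, correlated at 0.241 with 1633473_s_at and at 0.618 at most with any member. Among 8326 probe sets of other genes with a mean log2 level of at least 6 in a genotype, the most like Pglym87 were those of CG5280, CG14054 and CG5561, each with r = 0.989. The most like Pglym78 were Mdh1, a malate dehydrogenase (r = 0.990), Nop56, a protein of the nucleolus (r = 0.983), and Dip-B, an aminopeptidase (r = 0.982).

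Other copies of glycolytic enzymes were mostly lower in the arrested genotypes. Of 7 such genes, each read by 1 probe set, 5 were called lower in Med22RNAi, 6 in aly and 5 in sa, and 0 were called higher in any. Of all probe sets, 9.02%, 10.3% and 7.69% were called lower in the same order, and 11.3%, 14.3% and 9.52% higher. This list and those that follow were chosen with earlier results of these data known, so their counts are descriptions. The shares count every probe set, also those at the floor, whereas a list takes the brightest probe set of each gene. The median log2 fold change of the 7 genes was -2.40, -8.65 and -2.98, where the median of all 11982 genes was 0.00, 0.11 and 0.04. CG12229, a pyruvate kinase paralog, went from 13.2 to 13.5 in wild type to 2.39 to 2.96 in aly, at least 1318-fold lower (limma adjusted p = 6.96e-09). CG2964, another pyruvate kinase paralog, was at least 548-fold lower in aly (adjusted p = 5.96e-09) with log2 fold changes of -2.91 in Med22RNAi and -2.98 in sa.

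A further pyruvate kinase paralog, CG11249, fell in all 3, with log2 fold changes of -5.46, -9.13 and -6.07 in Med22RNAi, aly and sa, as did CG7069, with -2.40, -3.70 and -4.21 in the same order. CG7059, a phosphoglycerate mutase paralog, had log2 fold changes of -2.38, -8.65 and -3.81, beside the changes of Pglym87 given above. CG9961, a phosphoglycerate kinase paralog named here after its values were seen, had log2 fold changes of -1.10, -2.91 and -2.39, whereas Pgk rose. The remaining gene, CG7362, was near the floor on all arrays, at 4.27 at most.

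In the steps above aldolase, 7 of 7 listed genes were measured, and 2 were called lower and 1 higher in Med22RNAi, 2 and 0 in aly, and 3 and 0 in sa. The shares of all probe sets were 9.02% and 11.3%, 10.3% and 14.3%, and 7.69% and 9.52%. Median log2 fold changes of the 7 genes were -1.78, -0.22 and -0.62. Among the hexokinase genes, which phosphorylate glucose, copies moved in opposite directions in Med22RNAi. Hex-t1 and Hex-t2, the testis hexokinases, fell in all 3, with log2 fold changes of -5.20 and -2.26 in Med22RNAi, -7.71 and -8.81 in aly, and -2.55 and -3.02 in sa (limma adjusted p of 7.11e-05 or less). Hex-A, the general hexokinase, rose by 2.06 in Med22RNAi (adjusted p = 5.04e-05), with -0.22 in aly and 0.30 in sa. The rise of Hex-A stood beside the higher muscle and hemocyte markers of Med22RNAi described above, and their part in it was not tested. Pfk, the committed step, fell by 2.42 in sa, and had smaller changes of -1.91 in Med22RNAi and -1.55 in aly.

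**Figure D4:**
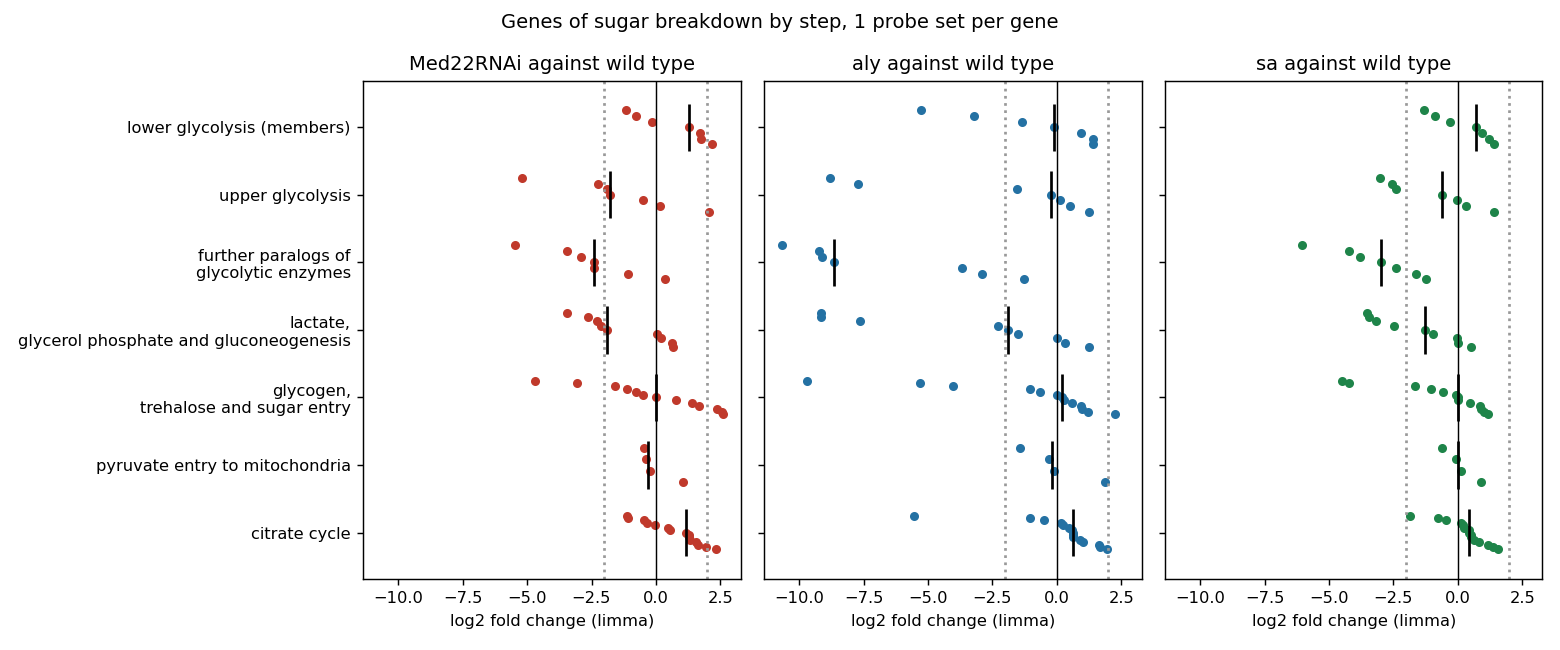
Log2 fold change against wild type (x axis) of genes by step of sugar breakdown (y axis), with 1 point per gene, 1 panel per arrested genotype, a bar at each list's median and dotted lines at 4-fold. The further paralogs lie lowest, with a median of -8.65 in aly.

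The copies of genes for the glycerol phosphate shuttle, which passes NADH electrons into mitochondria, also differed from each other. Of 9 measured genes for glycerol phosphate and gluconeogenesis (no lactate gene of the list was measured), 4 were called lower in each genotype and 0 higher, with medians of -1.91, -1.90 and -1.28. Among all probe sets 9.02%, 10.3% and 7.69% were called lower in Med22RNAi, aly and sa, and 11.3%, 14.3% and 9.52% higher. Gpdh2 and Gpdh3, cytosolic glycerol 3-phosphate dehydrogenases, fell in all 3, with log2 fold changes of -2.27 and -2.62 in Med22RNAi, -9.14 and -9.15 in aly, and -3.45 and -3.18 in sa. Gpo2, a mitochondrial partner, fell too, with -3.46, -7.66 and -3.51. The general form Gpdh1 had log2 fold changes of 0.68, 0.33 and 0.50 in Med22RNAi, aly and sa on its brightest probe set, and its 4 probe sets ranged from 0.68 to 1.49, from 0.17 to 0.44 and from -0.38 to 0.50 in the same order, none of them 4-fold and of both signs in sa. PCB, pyruvate carboxylase, had probe sets that disagreed, with 0.22, -1.90 and -0.96 for the brighter and -5.79, -3.94 and -3.70 for the other.

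Of 13 measured genes for glycogen, trehalose and sugar entry, 2 were called lower and 3 higher in Med22RNAi, 3 and 1 in aly, and 2 and 0 in sa, with medians of 0.00, 0.20 and 0.00. The shares of all probe sets called lower and higher were 9.02% and 11.3%, 10.3% and 14.3%, and 7.69% and 9.52%. Pgm2b, of the phosphoglucomutase family, fell as well, with log2 fold changes of -3.07 in Med22RNAi and -4.21 in sa, and was at least 529-fold lower in aly. The sugar transporter gene Tret1-2 had log2 fold changes of -4.69, -5.33 and -4.49, and Treh, which cleaves trehalose, fell by 4.01 on the log2 scale in aly. Glys, Tps1 and Tret1-1, which serve glycogen synthesis, trehalose synthesis and trehalose transport, rose by 2.58, 2.62 and 2.38 on the log2 scale in Med22RNAi, beside the same muscle and hemocyte markers, and Pgm1 rose by 2.25 in aly.

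Genes that act below pyruvate were counted in the same way. Of 4 measured genes for pyruvate entry to mitochondria, 0 were called in any genotype by limma, but a second, dimmer probe set of Pdk, a kinase of pyruvate dehydrogenase, rose by 2.72 in Med22RNAi (adjusted p = 0.000158). By adjusted p alone 1 was lower and 1 higher in Med22RNAi, 1 and 1 in aly, and 0 and 1 in sa. Of 15 measured citrate cycle genes, 1 was called higher in Med22RNAi, 1 lower in aly and 0 in sa, against the 4-fold shares given above. By adjusted p alone 10, 9 and 9 were higher and 3 lower in each. Of all probe sets 28.3%, 30.1% and 28.0% were higher by that rule, and 17.0%, 15.2% and 14.3% lower. These shares count every probe set, also those at the floor, whereas the list takes the brightest probe set of each gene. In Med22RNAi the counts stood beside the higher muscle and hemocyte markers, whose part was not tested. Medians of the citrate cycle genes were 1.18, 0.62 and 0.43. Ogdh, of the oxoglutarate dehydrogenase complex, rose by 2.33 in Med22RNAi, and Fum2, a fumarase paralog, fell by 5.53 in aly, both on the log2 scale.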

How the data were processed

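RNA of 12 testis samples was read on Affymetrix Drosophila arrays. The deposited values are log2 signals, 1 per probe set, which the authors made with GCRMA, which corrects background, normalizes between arrays and summarises probes (no version is given in the sources used here). Of 18952 rows, 183 control probe sets were removed, and 18769 were tested with no filter. Genes were named from the array's annotation table where it gave 1 symbol (13647 probe sets). Groups came from the sample labels. limma 3.58.1 in R 4.3.3 (lmFit, eBayes) fitted 1 mean per genotype to all arrays, and p-values were adjusted over all probe sets by Benjamini-Hochberg. Where all arrays of a genotype lay under 3, folds are bounds with it at 3. Exact permutation tests were two-sided for 3 against 3 arrays. In gene lists the probe set with the highest mean over all arrays represents a gene. All members are named, and up to 4 called genes per list, genotype and direction, besides CG9961 and some genes that were not called. Members and lists were chosen with earlier results of these data known. The fit was tested on simulated data. Python 3.11.15, pandas 2.3.3 and matplotlib 3.10.9 made the tables and figures. The number of arrays limits the precision.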

Additional observations from a re-analysis of the deposited data

How the results depend on the processing

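Other settings were tried one at a time. In settings that keep the 4-fold call rule, 946 of 954 values of single members stayed on their side of it, 4 became called and 4 lost the call. A call never changed sign, but 18 values that were not called at 4-fold did, 9 of them with medians set equal. With array medians set equal, the members called higher were 0 in Med22RNAi, 2 in aly and 2 in Med22RNAi against aly, where 1, 0 and 4 had been. The share of all probe sets called at 4-fold was not counted in that setting. By adjusted p alone, 23.8%, 77.4% and 11.5% of all probe sets were higher there. The 4 lost calls were Ald1 1631993_s_at in Med22RNAi (1.71) and against aly (1.16), and Tpi in Med22RNAi against aly (1.33) and in aly against sa (-1.46). With 1 probe set per gene, which keeps 1631993_s_at for Ald1, 0 members were lower in Med22RNAi and 0 in sa. Looser call rules leave the values as they are. With a 2-fold limit 2 were lower and 4 higher in Med22RNAi (13.8% and 22.9% of all probe sets). In aly 4 were lower and 2 higher (13.0% and 25.0%), and in sa 2 and 2 (11.8% and 22.0%). Between arrested genotypes, 5 were higher in Med22RNAi against aly (15.7%), 2 higher in Med22RNAi against sa (11.4%) and 4 lower in aly against sa (10.7%). With no fold limit 3 were lower and 4 higher in Med22RNAi (17.0% and 28.3%). In aly 4 were lower and 3 higher (15.2% and 30.1%), and in sa 4 and 4 (14.3% and 28.0%). Between arrested genotypes, 6 were higher in Med22RNAi against aly (20.1%), 2 higher in Med22RNAi against sa (16.7%) and 5 lower in aly against sa (14.5%). Quantile normalization gave 1 member higher in Med22RNAi against sa, and leaving out each array in turn gave 0 to 1. Beyond those shown by the construction of a setting, the cause was not tested.

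The contrast of Pglym87 with Pglym78 kept its direction throughout, with an exact permutation p of 0.00013 to 0.000649 over the arrays left out and 0.00039 after quantile normalization. With a floor at 4 the change in aly was -4.91. Replicate numbers did not pair the arrays, since deviations of same-numbered arrays correlated at -0.387 to 0.389 and those of other arrays at -0.345 to 0.485. With a replicate block the contrast had an exact permutation p of 0.00521, no 4-fold call of a member changed, and the adjusted p of Pglym87 in Med22RNAi from limma was 0.0616. Fitting only wild type and the genotype compared gave adjusted p of 0.118 for Pglym87 in Med22RNAi and 0.0679 in sa. Pglym78 in Med22RNAi against aly had an adjusted p of 0.0454, which the block raised to 0.0833 and leaving out an array to at most 0.152. Ald2 with Ald1 and Gapdh1 with Gapdh2 could not be contrasted, and with 1 probe set for each mutase gene no other probe set could be tried.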
